A study of Mus musculus with 24 samples.

Results

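Potassium channel genes were examined in the medial prefrontal cortex of mouse offspring at postnatal day 21. A gene was included if its symbol starts with Kcn and its mean was at least 10 normalized counts over the 12 libraries of each sex. Of 24972 genes in the deposited tables, 98 carried such a symbol and 76 were included, of which 65 encode channel subunits (BK beta subunits included), 9 encode other auxiliary subunits and 2 are non-coding RNAs. None of the other 22 reached the mean in one sex only, and 4 of them were listed at 0 in all 24 libraries. The groups were male MO, male SAL, female MO and female SAL offspring, with 6 libraries each. MO offspring came from dams injected subcutaneously once a day with 10 mg/kg morphine sulfate, and SAL offspring from dams injected with saline, from before mating until weaning. All offspring were B6D2F1/J hybrids of C57BL/6J mothers and DBA/2J fathers, were not injected themselves, and were taken as 1 animal of each sex per litter, with small litters merged soon after birth. The comparison asked whether perinatal morphine was followed by other RNA levels of potassium channel genes, MO against SAL within each sex.

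Potassium channels set the resting potential of a cell and return the membrane to it after an action potential. Voltage-gated channels (Kcna to Kcnd, Kcnh and Kcnq) open on depolarization, inward rectifiers (Kcnj) and tandem-pore channels (Kcnk) pass current near rest, and calcium- and sodium-activated channels (Kcnma, Kcnn and Kcnt) open with ion entry. The G protein-gated inward rectifiers, or GIRK channels, are opened by the beta-gamma subunits that Gi-coupled receptors such as the mu opioid receptor release, and they mediate much of the slow postsynaptic inhibition by opioids and GABA. Neuronal GIRK channels are tetramers of GIRK1 (Kcnj3), GIRK2 (Kcnj6) and GIRK3 (Kcnj9), while GIRK4 (Kcnj5) is best known from the heart.

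The values are normalized counts, that is, estimated read counts per gene divided by a library size factor by the authors. In units of 1e6, their sum per library was 14.7 to 15.97, and the sum divided by the commonest low value, about what 1 read is worth, was roughly 13.5 to 20.1. The potassium channel genes together held 0.436% to 0.515% of each library's sum. All 7 neuron markers and all 7 astrocyte markers were above 0 in every library. Female MO library PFC1 stood apart, with markers whose mean deviation from the mean of the 12 female libraries was -0.45 for neurons, 0.70 for astrocytes, 1.84 for oligodendrocytes and 1.53 for striatal projection neurons (log2). Male SAL library PFC16 had a mean deviation of 1.23 for striatal projection neuron markers and of -1.21 for blood markers (log2). In addition, 11 libraries carry the suffix "combined" in their column name (4 female MO, 4 female SAL, 2 male MO and 1 male SAL), and what was combined is not given in the sources used here. In whole tissue, fewer cells of a type and less RNA per cell cannot be told apart.

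The GIRK genes are shown first because they link opioid receptors to potassium current. On GRCm38, Kcnj3 lies on chromosome 2 (55435970 to 55598145, plus strand), Kcnj6 on chromosome 16 (94748636 to 94997701, minus strand) and Kcnj9 on chromosome 1 (172320501 to 172329318, minus strand). Next to Kcnj9, starting 11.9 kb away on the opposite strand, lies Kcnj10 (172341210 to 172374085), which encodes Kir4.1, the main potassium channel of astrocytes. The sequences from 250 bases before to 50 bases after the start of these 4 genes are given as regulatory context (RefSeq, GRCm38.p6, 5′ to 3′ on the gene's strand). A promoter sequence was found in that table for 54 of the 76 genes, and of 2 listed starts of Kcnj6 the one nearer the annotated start is shown. Capitals mark matches, on either strand and at any position, to the TATA box motif TATAAA or the GC box motif GGGCGG.
Kcnj3, chr2:55435720-55436019, plus strand: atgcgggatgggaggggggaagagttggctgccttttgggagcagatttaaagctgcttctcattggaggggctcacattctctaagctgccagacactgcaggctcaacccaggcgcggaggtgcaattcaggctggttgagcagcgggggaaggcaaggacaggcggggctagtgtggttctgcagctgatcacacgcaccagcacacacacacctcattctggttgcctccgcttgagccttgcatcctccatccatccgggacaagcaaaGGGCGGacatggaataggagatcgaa
Kcnj6, chr16:94997647-94997946, minus strand: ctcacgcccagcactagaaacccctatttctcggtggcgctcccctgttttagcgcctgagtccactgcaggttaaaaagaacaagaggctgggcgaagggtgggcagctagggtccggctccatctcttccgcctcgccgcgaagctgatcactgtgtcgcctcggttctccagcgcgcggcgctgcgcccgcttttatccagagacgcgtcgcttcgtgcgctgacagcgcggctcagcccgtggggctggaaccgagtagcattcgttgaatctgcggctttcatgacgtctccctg
Kcnj9, chr1:172329273-172329572, minus strand: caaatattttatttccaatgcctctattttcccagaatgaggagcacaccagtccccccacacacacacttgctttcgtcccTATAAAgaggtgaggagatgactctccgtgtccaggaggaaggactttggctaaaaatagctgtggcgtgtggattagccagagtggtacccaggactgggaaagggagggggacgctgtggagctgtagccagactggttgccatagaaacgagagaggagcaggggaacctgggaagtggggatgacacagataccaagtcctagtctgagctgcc
Kcnj10, chr1:172340960-172341259, plus strand: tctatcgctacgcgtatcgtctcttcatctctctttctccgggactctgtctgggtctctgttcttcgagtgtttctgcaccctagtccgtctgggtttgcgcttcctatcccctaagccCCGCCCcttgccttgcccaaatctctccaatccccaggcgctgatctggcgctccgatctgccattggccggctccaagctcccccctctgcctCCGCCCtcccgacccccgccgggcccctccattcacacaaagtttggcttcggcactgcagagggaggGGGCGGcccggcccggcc

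TATAAA occurred once, in the Kcnj9 window, and in 13.6% of 32851 promoters of the same length. GGGCGG occurred once in the Kcnj3 window and 3 times in the Kcnj10 window, and in 35.7% of all promoters. Neither motif was found in the Kcnj6 window, which held 30 CG dinucleotides, against 10 in Kcnj3, 5 in Kcnj9, 21 in Kcnj10 and a median of 7 over all promoters. The cyclic AMP response element TGACGTCA, present in 1.79% of all promoters, was in none of these 4 windows. Of the 3 motifs searched, the neighbouring Kcnj9 and Kcnj10 windows had none in common.

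No GIRK gene passed the test in either sex, and their MO and SAL libraries overlapped. In males, the lowest, median and highest values of Kcnj3 were 2130, 2327 and 2464 normalized counts in MO and 2235, 2346 and 2453 in SAL. For Kcnj6 they were 259, 346 and 425 in MO and 296, 337 and 433 in SAL, and for Kcnj9 2146, 2333 and 2451 in MO and 2185, 2330 and 2380 in SAL. The MO and SAL libraries overlapped over most of their range for each of the 3 genes, and only the SAL library PFC16 stood clear of its group, with 433 normalized counts of Kcnj6. The log2 fold change in males was -0.029 for Kcnj3 (95% interval -0.12 to 0.064), -0.020 for Kcnj6 (-0.25 to 0.21) and 0.0026 for Kcnj9 (-0.089 to 0.094).

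In females, Kcnj3 had 1314, 1916 and 2211 normalized counts in MO and 1793, 2038 and 2618 in SAL (lowest, median and highest). Kcnj6 had 197, 296 and 345 in MO and 265, 293 and 405 in SAL, and Kcnj9 had 1646, 2050 and 2326 in MO and 1667, 2224 and 2432 in SAL. Library PFC1 was the lowest of all 12 for each of these genes, and the groups overlapped. The log2 fold change was -0.20 for Kcnj3 (95% interval -0.48 to 0.073, exact permutation p = 0.208), -0.12 for Kcnj6 (-0.40 to 0.17, exact permutation p = 0.476) and -0.055 for Kcnj9 (-0.28 to 0.17, exact permutation p = 0.604). Without PFC1 the 3 values were -0.11, -0.0085 and 0.0077. With a term for the combined libraries, the difference of Kcnj3 in females had an unadjusted limma p of 0.0444 at the same log2 fold change.

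Kcnj5 was near the limit of measurement, with a mean of 7.58 normalized counts in males and 7.19 in females, and was not included. It had 0, 6.89 and 21.7 in male MO and 4.70, 7.61 and 11.6 in male SAL, and 2 male MO libraries were listed at 0. Per kilobase of exon, which allows levels to be compared between genes, Kcnj9 had 592 normalized counts in males and 541 in females. Kcnj3 had 446 and 383 per kilobase in the same order of sexes, and Kcnj6 52.5 and 46.4. Kcnj6 was thus the least abundant of the neuronal GIRK subunits on this scale.

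**Figure D1:**
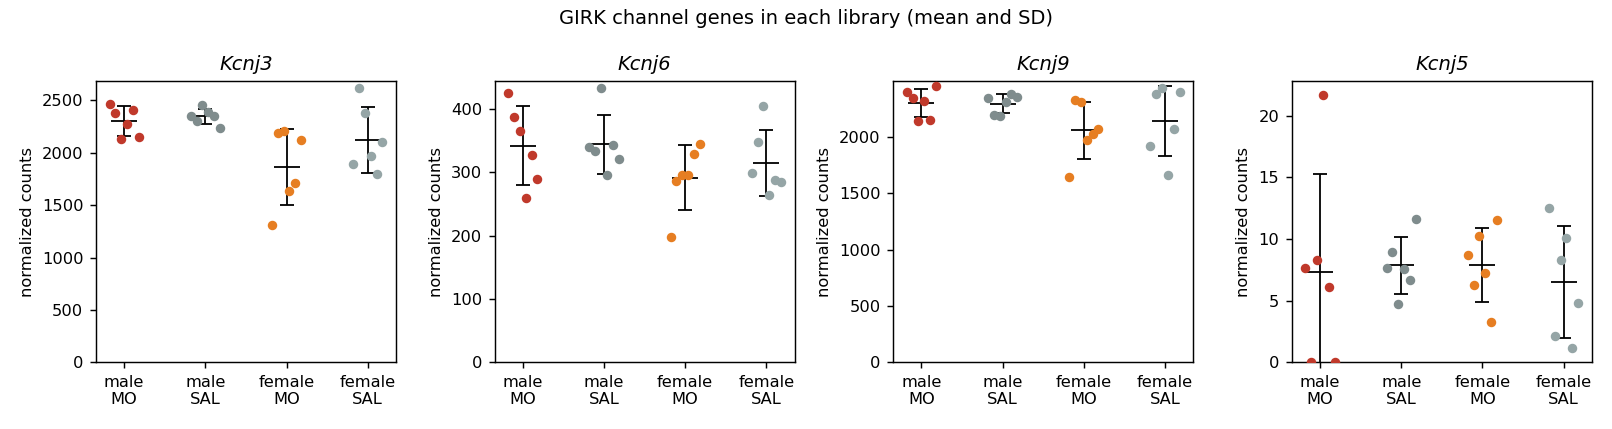
Normalized counts (y axis) of the 4 GIRK genes in each library, in male MO, male SAL, female MO and female SAL (x axis, 6 libraries each). Points are libraries, horizontal marks means and bars SD. MO and SAL overlap for every gene, the lowest female MO point of Kcnj3, Kcnj6 and Kcnj9 is PFC1, and Kcnj5 lies between 0 and 21.7.

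Over all 76 genes, no member was called after adjustment. In males, 0 of 76 genes were called by limma at an adjusted p under 0.05 (0% of all 16662 genes tested), with 1.00 as the smallest adjusted p. At an unadjusted p under 0.05, 0 genes were higher (1.33% of all genes) and 1, Kcnj13, was lower (1.52% of all genes). The log2 fold change was above 0 for 30 genes and below 0 for 46, with a median of -0.02 against -0.00023 over all genes tested. Separation of all 6 MO from all 6 SAL libraries was seen for 0 of the 76 genes and for 0.06% of all genes. In neither sex did a gene of the 76 pass the thresholds of the study, an unadjusted p under 0.05 with a log2 fold change beyond 1.2 in either direction.

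In females, limma called 0 of 76 genes at an adjusted p under 0.05 (0% of 16717 genes), with 0.918 as the smallest adjusted p. At an unadjusted p under 0.05, 0 genes were higher (1.81% of all genes) and 1, Kcnv1, was lower (1.12% of all genes). The log2 fold change was above 0 for 24 genes and below 0 for 52, with a median of -0.06 against 0.0018 over all genes. No gene had separate groups (0.132% of all genes). Without PFC1, 31 genes lay above and 45 below 0, the median was -0.02, and 0 genes had an unadjusted p under 0.05 in either direction. Summed neuron markers were 84154 to 123739 normalized counts in female MO, against 117433 to 126277 in female SAL, with 0 of 7 past an unadjusted p of 0.05, and their part in these values was not tested.

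The intervals show how large a difference these libraries leave room for. In males, the 95% interval lay within a 1.2-fold change in either direction for 46 of the 76 genes, within 1.5-fold for 72 and within 2-fold for 75. In females the counts were 16, 63 and 74, and without PFC1 35 genes lay within 1.2-fold and 71 within 1.5-fold. The median half-width of the interval was 0.157 in males and 0.279 in females (log2). For genes averaging 100 normalized counts or more, the median SD within groups was 0.104 for 58 potassium channel genes and 0.111 for 10578 genes in all in males, and 0.212 and 0.159 (of 10564 genes) in females.

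**Figure D2:**
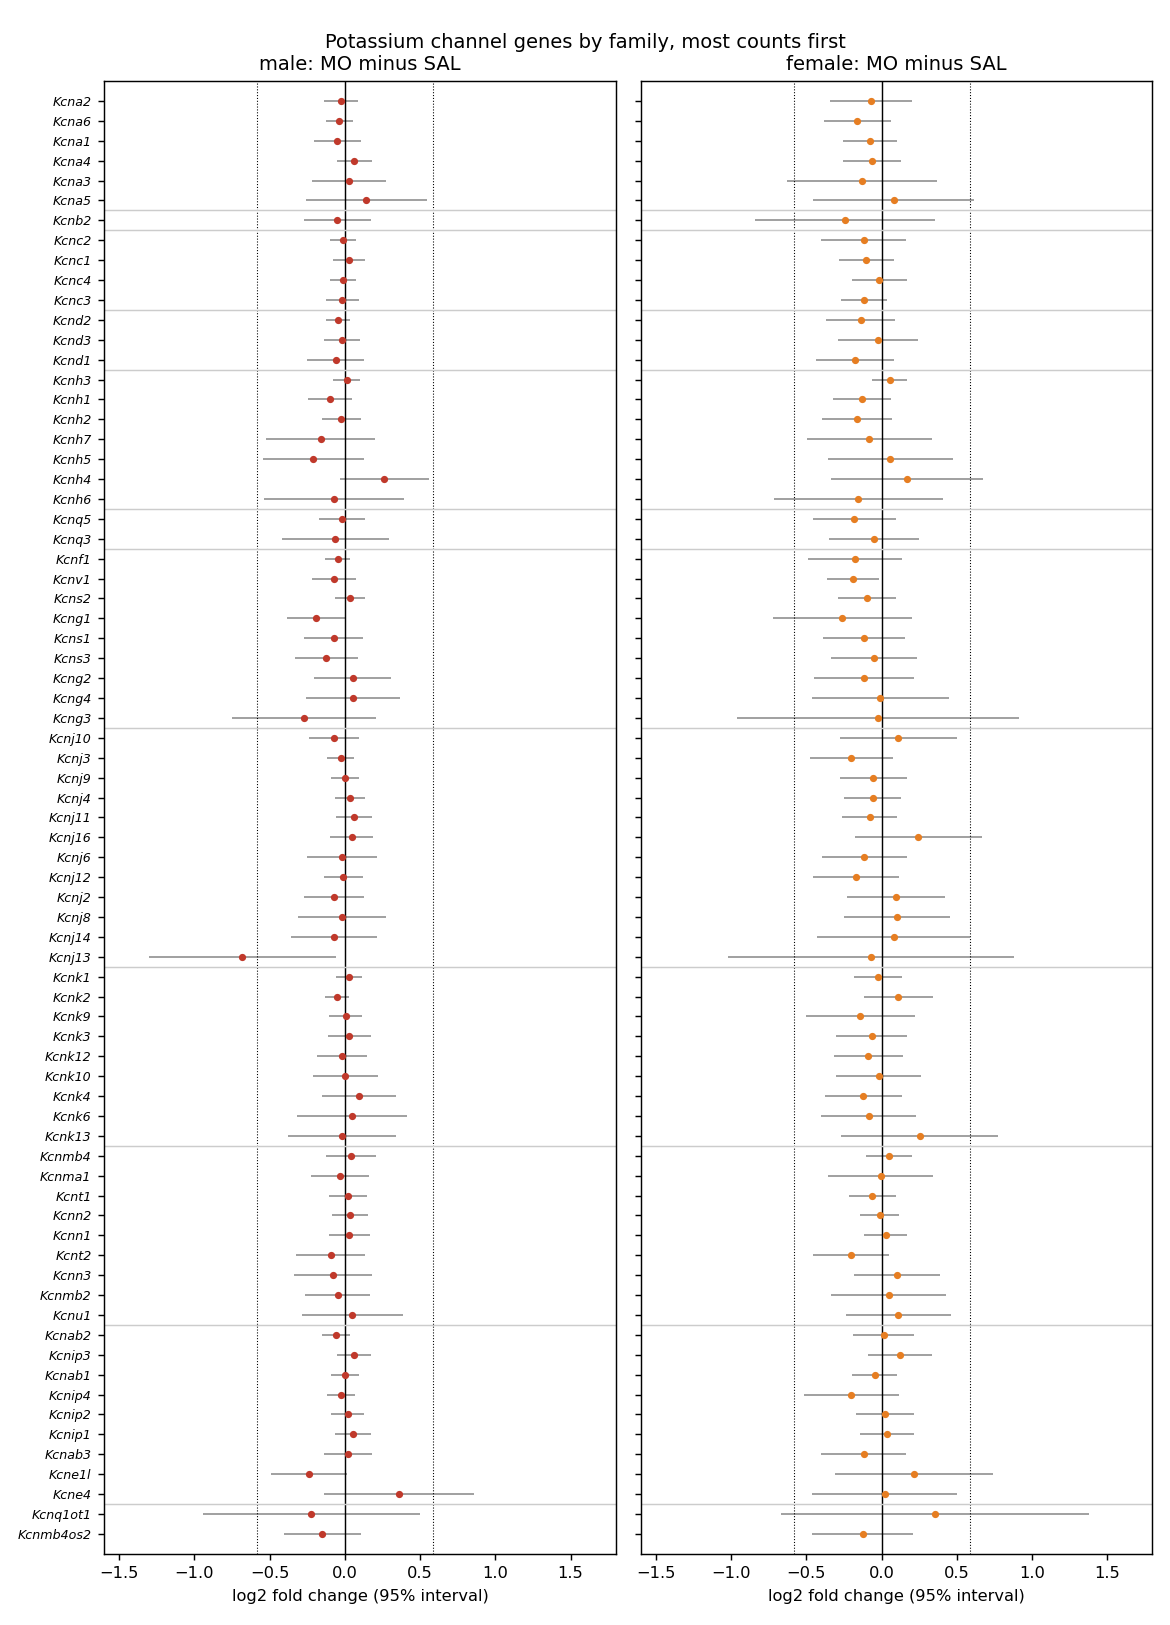
Log2 fold change, MO minus SAL (x axis, points with 95% intervals from limma), of 73 of the 76 potassium channel genes (y axis, grouped by family and ordered by level), in males (left) and females (right). Dotted lines mark a 1.5-fold change. Nearly all points lie close to 0, the interval of Kcnj13 in males and of Kcnv1 in females lies below 0, and intervals are wider in females.

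Comparisons were also made within libraries with or without the suffix, in splits chosen after the data were seen, and no test compared the splits. Among the male libraries without the suffix (4 MO and 5 SAL), 10 of 76 genes were lower in MO at an unadjusted p under 0.05, against 4.38% of all genes, and 0 passed an adjusted p of 0.05 in limma (smallest 0.597). They included Kcna2, Kcnb2, Kcng1, Kcnh1, Kcnh5, Kcnh7, Kcnj13, Kcnma1 and Kcnv1, and the median log2 fold change over the 76 genes was -0.04. MO and SAL groups were separate for 4 of the 76 genes, against 2.25% of all genes. These included Kcnma1, lower in MO, and Kcnk1, higher in MO at a log2 fold change of 0.062. Kcnma1, the pore of the large-conductance calcium-activated (BK) channel, had 1249, 1305, 1314 and 1330 normalized counts in these MO libraries, and 1349, 1482, 1522, 1533 and 1722 in the SAL libraries (log2 fold change -0.22, standard error 0.06, limma adjusted p = 0.597). The 2 male MO libraries with the suffix had 1728 and 1646, the only SAL one had 1163, and with these 3 included the log2 fold change of Kcnma1 was -0.034. They are too few for a comparison of their own.

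Female libraries with the suffix (4 MO and 4 SAL) had 1 gene lower in MO at an unadjusted p under 0.05, Kcns1, against 1.85% of all genes, and a median of -0.04. Those without it (2 MO and 2 SAL) had 11 lower, against 5.18% of all genes, 1 higher, against 5.31% of all genes, and a median of -0.09, and 0 passed an adjusted p of 0.05 in limma. Kcnj3 and Kcnj6 were among the 11, with log2 fold changes of -0.18 and -0.37. Among the libraries with the suffix these values were -0.21 and 0.0080.

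Voltage-gated channels of the Shaker to Shal families (Kcna, Kcnb, Kcnc and Kcnd) comprised 15 genes, with means from 49.2 to 4399 normalized counts in males. Kcna2 and Kcna1, which form low-threshold channels of axons, had 4361 ± 298 and 2375 ± 119 normalized counts in male MO, against 4438 ± 302 and 2476 ± 383 in male SAL (mean ± SD, n = 6 each). In females, the values were 3726 ± 709 and 2094 ± 203 in MO, against 3891 ± 595 and 2214 ± 256 in SAL. Both genes overlapped between groups in each sex.

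Kcnc1 and Kcnc2 encode Kv3 channels, which allow fast-spiking interneurons to fire at high rates. The log2 fold change of Kcnc1 was 0.029 ± 0.050 (standard error) in males and -0.10 ± 0.086 in females, and that of Kcnc2 was -0.013 ± 0.040 and -0.12 ± 0.13 in the same order. Kcnd2, which carries the A-type current of dendrites, ranged from 1921 to 2028 normalized counts in male MO libraries, against 1958 to 2213 in male SAL libraries, and from 1167 to 2009 in female MO libraries, against 1729 to 2021 in female SAL libraries. None of the 15 genes had an unadjusted p under 0.05 in either sex. In females, all 4 Kcnc and all 3 Kcnd genes had log2 fold changes below 0, and PFC1 was the lowest female library for Kcnc1, Kcnc2 and Kcnd2. Without PFC1, 4 of these 7 genes were below 0, and Kcnc2, Kcnc4 and Kcnd3 were at 0.013, 0.070 and 0.085.

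Kcnq3 and Kcnq5 encode subunits of the M-current, which Gq-coupled receptors close, and Kcnh genes encode the EAG, ERG and ELK channels. Kcnq3 had 207, 319.8 and 409.9 normalized counts in male MO and 261, 303 and 465 in male SAL (lowest, median and highest), with log2 fold changes of -0.063 ± 0.17 in males and -0.052 ± 0.14 in females. PFC16 held its highest male value. Kcnh3, the most abundant Kcnh gene, differed little, with log2 fold changes of 0.011 ± 0.043 in males and 0.053 ± 0.056 in females.

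Kcnh4, an ELK channel gene, had 59.1, 78.7 and 101 normalized counts in male MO and 57.7, 64.3 and 70.6 in male SAL. MO libraries PFC10, PFC11 and PFC17 lay above every SAL library, and the other MO libraries lay within the SAL range. Kcnh4 had a log2 fold change of 0.26 ± 0.14 (unadjusted limma p = 0.0792, exact permutation p = 0.126). In females it was 0.17 ± 0.24.

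Electrically silent subunits (Kcnf, Kcng, Kcns and Kcnv) form no channel alone and modify other voltage-gated channels. Kcnv1 was lower in female MO at an unadjusted p under 0.05. It had 1800, 1992 and 2310 normalized counts in MO and 2097, 2289 and 2654 in SAL, so that 4 of the 6 MO libraries lay below the lowest SAL library and the others within the SAL range. This was a log2 fold change of -0.19 (standard error 0.081, 95% interval -0.36 to -0.018, unadjusted limma p = 0.0323, adjusted p = 0.918, exact permutation p = 0.0498). Leaving out 1 of 6 of the female libraries (PFC1, PFC3, PFC4, PFC22, PFC23 or PFC24) left p values of 0.0553 to 0.0840. The log2 fold change was -0.16 without PFC1, -0.14 among the libraries with the suffix and -0.10 with scaling to Gapdh and Ppia, each with an unadjusted p above 0.05. Among the female libraries without the suffix (2 MO and 2 SAL) it was -0.30, with an unadjusted limma p of 0.00994. In that comparison 10.5% of all genes had an unadjusted p under 0.05 and 42.6% had separate groups. In males Kcnv1 had 1924, 2371 and 2661 in MO and 2254, 2434 and 2673 in SAL, with a log2 fold change of -0.072 ± 0.070.

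All 9 silent subunit genes had log2 fold changes below 0 in females (8 of 9 without PFC1), and 6 of 9 in males. Kcnf1, the most abundant of them, had 1728, 3405 and 3609 normalized counts in female MO and 3179, 3372 and 3923 in female SAL. The lowest value was that of PFC1, and the log2 fold change was -0.18 with it and -0.015 without it. Kcng1 had 352, 415 and 549 in male MO and 418, 489.8 and 532 in male SAL, where 3 MO libraries lay below every SAL library (log2 fold change -0.19 ± 0.093, exact permutation p = 0.113). Without MO library PFC11 the value for Kcng1 was -0.27, with an unadjusted p under 0.05.

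Among the other inward rectifiers, Kcnj13 (Kir7.1), a channel of transporting epithelia such as the choroid plexus, was lower in male MO at an unadjusted p under 0.05. The male MO libraries had 6.14, 8.99 and 18.8 normalized counts and the SAL libraries 10.9, 18.9 and 24.6. MO libraries PFC11 and PFC17 lay within the SAL range while the other 4 lay below every SAL library. Kcnj13 had a log2 fold change of -0.68 (standard error 0.29, 95% interval -1.30 to -0.061, unadjusted limma p = 0.0332, adjusted p = 1.00, exact permutation p = 0.0671), on a scale that understates changes of low genes. Leaving out 1 of 6 of the male libraries (PFC12, PFC13, PFC14, PFC15, PFC19 or PFC20) left p values of 0.0631 to 0.0815. In females, Kcnj13 had 4.83, 9.64 and 13.1 in MO and 2.08, 10.5 and 26.2 in SAL (log2 fold change -0.074 ± 0.45). Within the splits by suffix, groups were small and the counts of Kcnj13 low, and no test compared the splits. Among libraries without the suffix, Kcnj13 was at -0.98 ± 0.33 in males (4 MO and 5 SAL) and at -1.09 ± 0.41 in females (2 MO and 2 SAL). Among female libraries with the suffix (4 MO and 4 SAL) the log2 fold change was 0.44 ± 0.48.

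Markers of other tissue that a dissection could hold were set beside Kcnj13. Of 6 choroid plexus markers, 1 was higher and 0 were lower in male MO at an unadjusted p under 0.05, and 3 were at 0 in at least 1 male library. Their sum was 50.2 to 94.2 normalized counts in male MO, against 36.6 to 92.1 in male SAL. All 4 markers of meninges and fibroblasts were lower in male MO at an unadjusted p under 0.05, with sums of 632 to 1197 in MO, against 932 to 1953 in SAL, and their part in the difference of Kcnj13 was not tested.

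Kcnj10 and Kcnj16 form the Kir4.1 and Kir5.1 channels that buffer potassium in astrocytes. Kcnj10 had 2815, 3615 and 6756 normalized counts in female MO and 3065, 3921 and 4709 in female SAL, and Kcnj16 had 378, 497 and 877 in MO, against 324, 477 and 565 in SAL. PFC1 was the highest library for both genes and the lowest for the neighbouring Kcnj9. For Kcnj16 the log2 fold change was 0.24 ± 0.20 with PFC1 and 0.10 ± 0.16 without it, and that of Kcnj10 was 0.11 ± 0.18 and -0.034 ± 0.14. Summed astrocyte markers were 66921 to 130802 in female MO, against 65771 to 84969 in female SAL. Summed oligodendrocyte markers were 44796.5 to 295945 in female MO, against 30152.6 to 133188 in female SAL. The part of either list in the values of Kcnj10 and Kcnj16 was not tested. In males Kcnj10 had 3439 ± 361 in MO, against 3624 ± 433 in SAL (mean ± SD, n = 6 each).

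**Figure D3:**
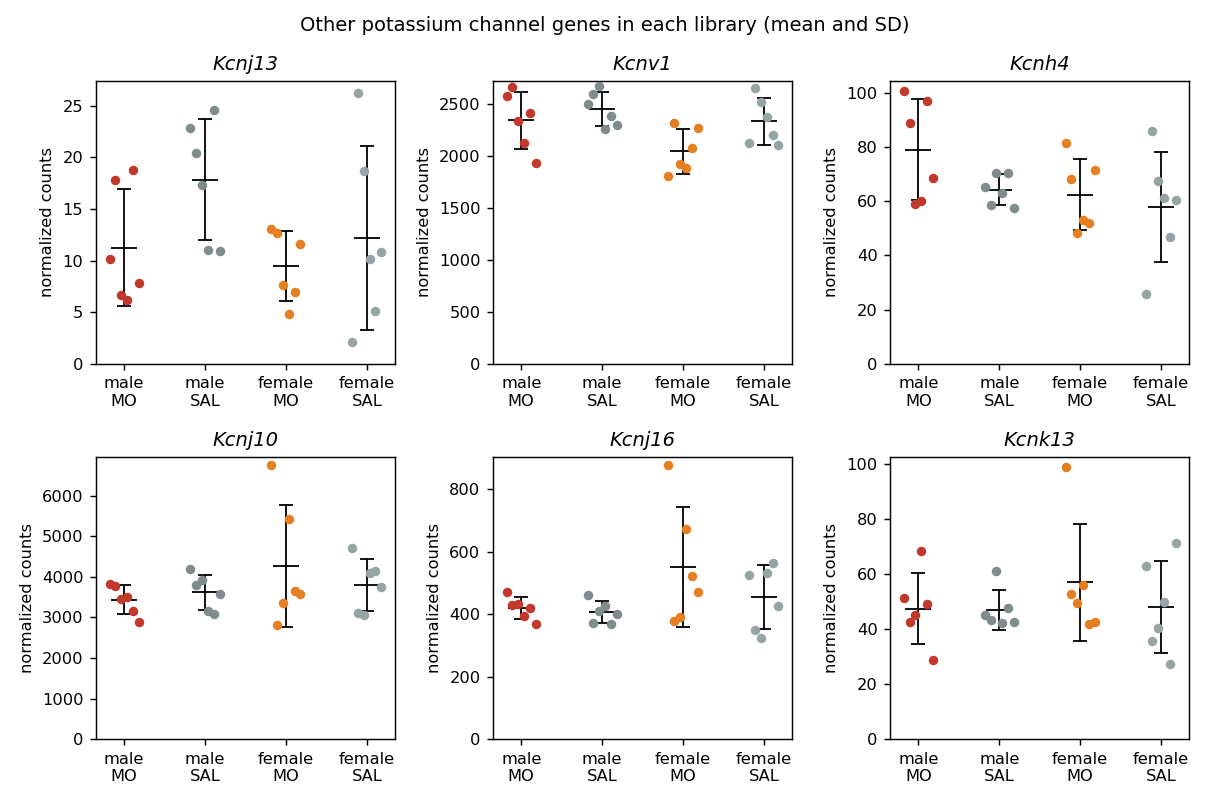
Normalized counts (y axis) of 6 further genes in each library, in male MO, male SAL, female MO and female SAL (x axis, 6 libraries each), with means and SD. Kcnj13 is lower in most male MO libraries, Kcnv1 in most female MO libraries, and 1 female MO library, PFC1, is the highest for Kcnj10, Kcnj16 and Kcnk13 (6756, 877 and 99.2).

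Channels of the Kcnk family carry the leak current. Kcnk1 (TWIK-1), the most abundant, had log2 fold changes of 0.025 ± 0.041 in males and -0.027 ± 0.075 in females. Kcnk2 (TREK-1), a channel opened by stretch and polyunsaturated fatty acids, was singled out after its values were seen. It had 948, 991 and 1015 normalized counts in male MO and 989, 1030 and 1057 in male SAL, a log2 fold change of -0.055 ± 0.038 (unadjusted limma p = 0.170, exact permutation p = 0.0238). In females it had 929, 1002 and 1586 in MO and 916, 1010 and 1078 in SAL, with PFC1 the highest. Kcnk13 (THIK-1), the main potassium channel of microglia, had 42.1, 51.1 and 99.2 in female MO and 27.5, 45.2 and 71.5 in female SAL (log2 fold change 0.25 ± 0.24, and 0.083 ± 0.21 without PFC1). Summed microglia markers were 5502 to 9935 in female MO, against 3792 to 7369 in female SAL, and their part was not tested.

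Of the 9 genes of calcium- and sodium-activated channels, none had an unadjusted p under 0.05 in either sex. Kcnmb4, the neuronal beta subunit of the BK channel, had 1576, 1659 and 2182 normalized counts in male MO and 1418, 1742 and 1872 in male SAL. Its log2 fold change was 0.041 ± 0.079 in males and 0.049 ± 0.073 in females. Kcnn2 (SK2), which carries part of the afterhyperpolarization, had values of 0.036 ± 0.056 and -0.013 ± 0.062, and Kcnt1 (Slack), a sodium-activated channel, 0.019 ± 0.060 and -0.063 ± 0.074, in the same order. The intervals of Kcnn2 and Kcnt1 lay within a 1.2-fold change in males.

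Auxiliary subunits included the beta subunit Kcnab2, with the most normalized counts of all 76 genes. It had 5091, 5546 and 5688 in male MO and 5317, 5657 and 6215 in male SAL, and 4859, 5658 and 7187 in female MO and 5221, 5623 and 6923 in female SAL. The groups overlapped, with log2 fold changes of -0.061 ± 0.045 in males and 0.013 ± 0.10 in females. Kcne1l, a small single-span subunit, had 42.6, 49.4 and 57.2 in male MO and 49.9, 58.2 and 69.6 in male SAL (log2 fold change -0.24 ± 0.12, unadjusted limma p = 0.0648, exact permutation p = 0.0433), and 44.7, 69.9 and 148 in female MO and 46.7, 59.8 and 85.7 in female SAL. Kcne4 had 9.42, 15.5 and 17.96 in male MO and 7.23, 10.1 and 18.7 in male SAL (log2 fold change 0.36 ± 0.24).

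The 2 non-coding members were Kcnmb4os2 and Kcnq1ot1, the long antisense RNA that silences imprinted neighbours of Kcnq1. Kcnq1ot1 had 58.9, 107 and 309.5 normalized counts in female MO and 43.5, 87.1 and 296 in female SAL, and 40.1, 85.9 and 189.8 in male MO and 51.2, 100.3 and 211 in male SAL. The order of the female libraries followed the suffix, as the 8 combined ones had at most 117 and the other 4 at least 182. In males the combined libraries had 66.6, 81.0 and 101, within the range of the others. The log2 fold changes of Kcnq1ot1, 0.35 ± 0.48 in females and -0.22 ± 0.34 in males, had the widest intervals among the 76 genes in females and in males.

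Levels per kilobase of exon ranged widely within families. In males, the most abundant genes on this scale were Kcnab2 (1353 normalized counts per kilobase), Kcnmb4 (1263), the inward rectifier Kcnj4 (988), Kcnk1 (799) and Kcnf1 (749.5). Females had 1401 for Kcnab2, 1283 for Kcnmb4, 912 for Kcnj4, 791 for Kcnk1 and 685 for Kcnf1. In both sexes 28 of the 76 genes had a mean above 1000 normalized counts. The included genes closest to the minimum were Kcnj13, Kcne4 and Kcnh6, with means of 14.6, 12.8 and 17.8 normalized counts in males and 10.8, 13.9 and 14.5 in females. The closest genes below it were Kcnmb1, Kcnq1 and Kcnj5, with 7.52, 7.69 and 7.58 in males and 9.02, 8.48 and 7.19 in females.

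**Figure D4:**
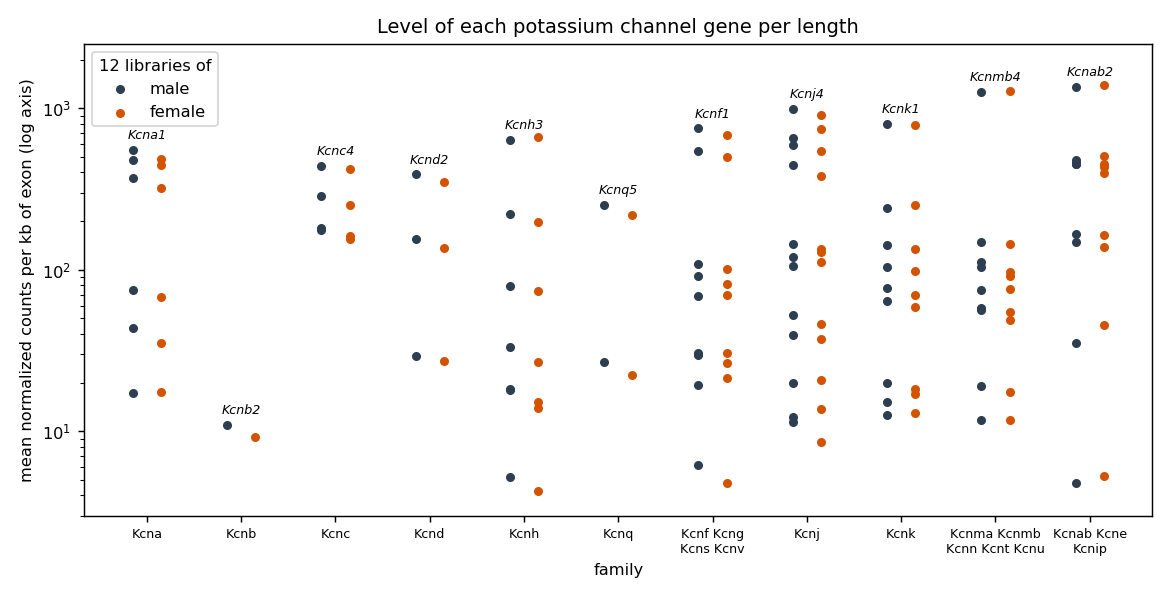
Mean normalized counts per kilobase of exon (y axis, log scale) of potassium channel genes by family (x axis), over the 12 male and the 12 female libraries. The most abundant gene shown of each family is named. Kcnab2, Kcnmb4 and Kcnj4 lead, and the sexes, which were normalized separately, show a like order.

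Single libraries stood out across many of the genes. PFC1 was the lowest of the 12 female libraries for 34 of the 76 genes and the highest for 15, with a median deviation of -0.28 from each gene's mean (log2). Those lowest in PFC1 included Kcnj3, Kcnj6, Kcnj9, Kcnd2, Kcnf1 and Kcnma1, and those highest included Kcnj10, Kcnj16, Kcnk2, Kcnk13, Kcne1l and Kcne4. The female SAL libraries PFC24 and PFC22 were the highest for 18 and 14 genes, with median deviations of 0.16 and 0.12. In males the median deviation stayed between -0.06 and 0.06, and PFC16 was the highest library for 20 genes. The part of tissue makeup in these values was not tested.

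**Figure D5:**
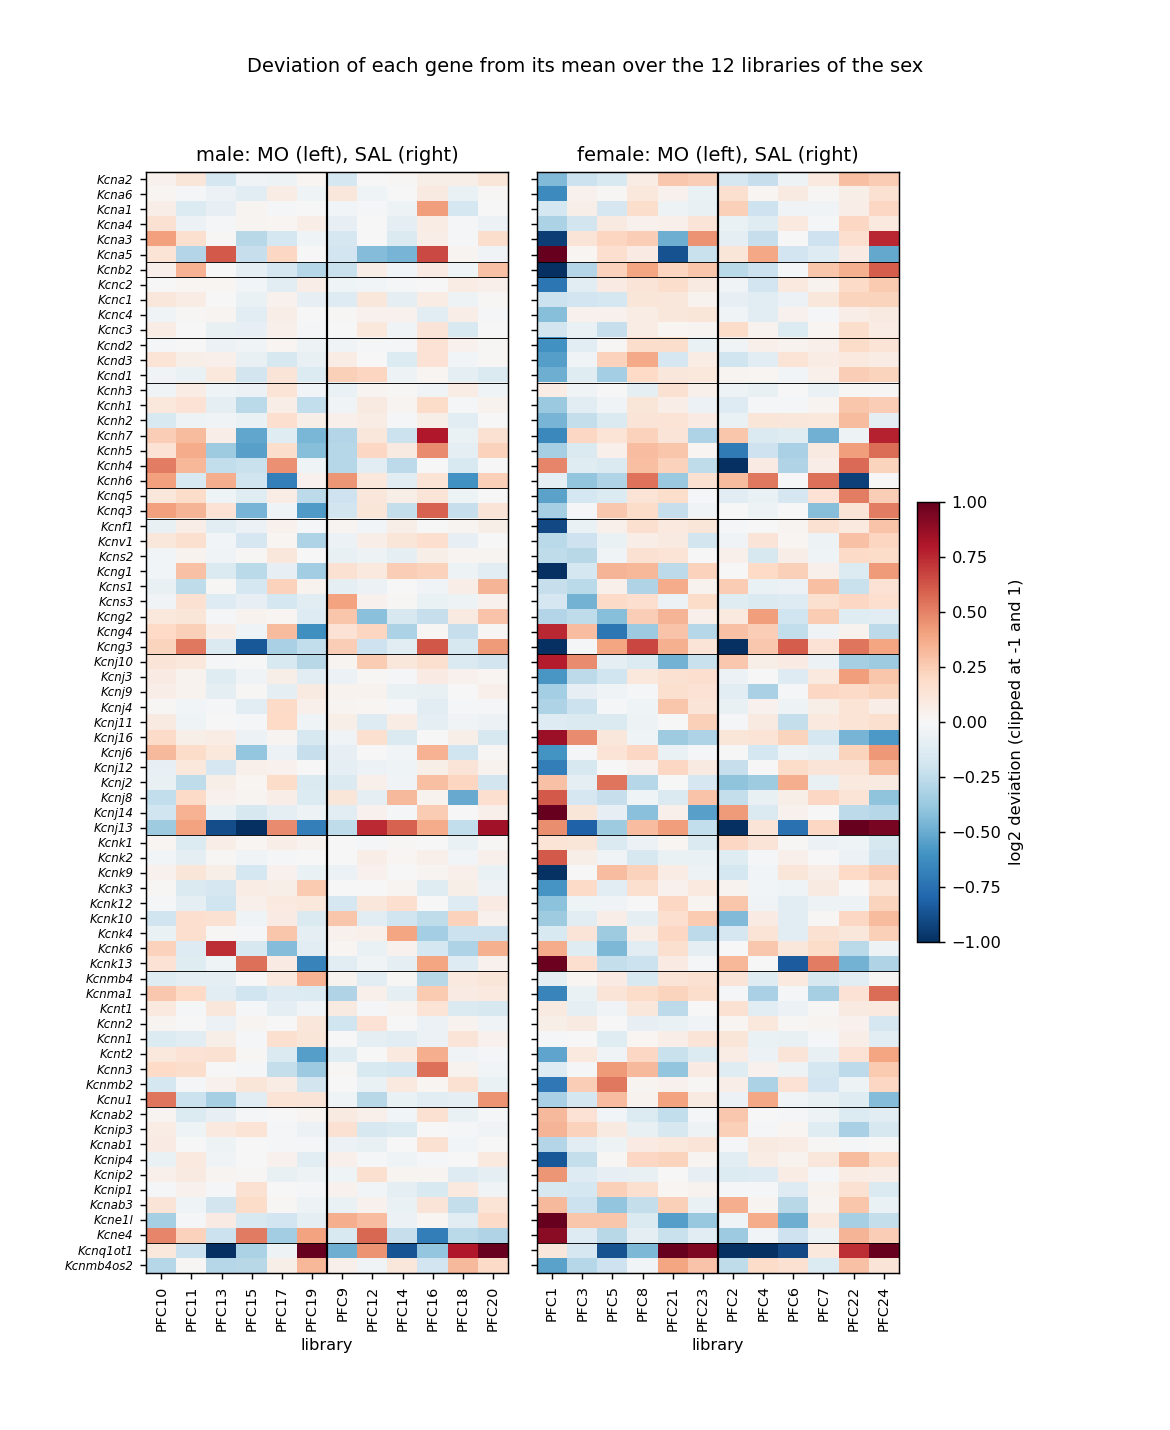
Deviation of 73 of the 76 potassium channel genes (rows, by family) from its mean over the 12 libraries of the sex (color, log2, clipped at -1 and 1) in each library (columns), MO left and SAL right of the black line. PFC1 shows the strongest column, the lowest female library for 34 of the 76 genes and the highest for 15, Kcnj10, Kcnj16 and Kcnk13 among them, and the Kcnq1ot1 row differs most between libraries.

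The difference between MO and SAL did not pass the test for a difference between the sexes in any of the 76 genes. At an unadjusted p under 0.05 there were 0 of 76 (2.1% of 17303 genes), and 0 passed an adjusted p of 0.05 in limma (0% of all genes). Between the log2 fold change of males and that of females, the difference was 0.17 for Kcnj3 (95% interval -0.12 to 0.47), 0.10 for Kcnj6 (-0.28 to 0.47) and 0.058 for Kcnj9 (-0.18 to 0.30). For Kcnj13 it was -0.61 (-1.76 to 0.55) and for Kcnv1 0.12 (-0.11 to 0.35), so that neither gene was shown to differ between the sexes.

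Receptors, G proteins and partners of the channels were counted as 3 lists. Of 15 receptors that couple to Gi and can open GIRK channels, 0 were higher and 1 was lower in male MO at an unadjusted p under 0.05, where 1.33% of all genes were higher and 1.52% lower. It was the muscarinic receptor gene Chrm4, with 639 ± 103 normalized counts in MO and 739 ± 49.6 in SAL (SD, n = 6 each, exact permutation p = 0.0649). None of the 15 had such a p in females. The mu opioid receptor gene Oprm1 was low, with 8.74 ± 1.65 in male MO and 11.4 ± 4.48 in male SAL, and 9.84 ± 4.32 in female MO and 7.82 ± 2.48 in female SAL. Of 24 G protein subunits and regulators, 1 was lower in male MO (Kctd16, a GABA-B receptor subunit, log2 fold change -0.40, exact permutation p = 0.0887) and 2 were lower in female MO (1.52% of all genes in males and 1.12% in females).

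These 2 were Gnb5, the beta subunit that pairs with regulators of G protein signaling, and Rgs4, which speeds the switching off of Gi. Gnb5 had 2279 ± 257 normalized counts in female MO and 2550 ± 78.4 in female SAL (SD, n = 6 each, a log2 fold change of -0.17, exact permutation p = 0.0152), and Rgs4 had 11758 ± 1915 in MO, against 13643 ± 1176 in the SAL libraries (a log2 fold change of -0.23, exact permutation p = 0.0628). Without PFC1, Gnb5 was at -0.11 and Rgs4 at -0.15, each with an unadjusted p above 0.05. Of 20 partners of potassium channels tested, 0 had an unadjusted p under 0.05 in males and 1 was lower in female MO (1.12% of all genes). It was Cntnap1, an axonal adhesion protein beside the nodes of Ranvier, with 2733 ± 361 in MO and 3139 ± 186 in SAL (exact permutation p = 0.0411). Without PFC1, Cntnap1 was at -0.16, with an unadjusted limma p of 0.0439. At an adjusted p under 0.05, limma called no gene of the 3 lists in either sex. In males, the median log2 fold change was -0.02 for the receptors, -0.02 for G proteins and regulators and -0.01 for the partners. In females it was -0.09, -0.0085 and -0.11 for these lists, and -0.01, 0.02 and -0.03 without PFC1.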

How the data were processed

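The authors sequenced polyadenylated RNA of 24 libraries as stranded single reads, used STAR for alignment to the mm10 build, estimated counts per gene with Salmon and normalized these by DESeq2. The deposited values are a signal per gene, normalized counts, in one table per sex. Whole reads could not be recovered from them (steps of 1 read fitted 10.1% to 54.2% of low values within 0.01), so depth is approximate and no count model was run.

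Values were analysed as log2(value + 1) with limma 3.58.1 (trend, R 4.3.3) over genes summing to at least 10 in the 12 libraries of a sex, with Benjamini-Hochberg adjustment over all genes. Single genes were also tested with a 2-sided exact permutation test, whose smallest possible p is 0.00216 with 6 libraries against 6. The difference between the sexes was a contrast over all 24 libraries, treated as independent because littermates are not named. The script was tested on simulated data. Exon lengths and positions are from GENCODE M21 (GRCm38), and kilobases count the union of exons. Overlapping antisense pairs rest on the stranded counting.

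Named were the GIRK genes, the most abundant gene of each family, genes with an unadjusted p under 0.05, the 5 largest fold changes per sex, genes next to the minimum and a set of well-known channels. Of the members, 3 enter the counts and are not reported by name here. Members and lists were chosen with earlier results of these data known. Alternatives were other pseudocounts (0.5 and 5), filters, scalings, sample weights, a term for combined libraries, leaving out each library, and, chosen after seeing the data, comparisons within libraries with or without the suffix.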

Additional observations from a re-analysis of the deposited data

Results flagged for a closer look

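Single libraries far from the other 5 of their group, by Dixon's test at the 95% level, were looked for among the named genes. The nominal rate of 5% does not apply here, because some genes were named for large fold changes and the groups share libraries. Of 136 groups, 13 (9.56%) held such a library. PFC1, a female MO library, accounted for 4 of these, with high values of Kcnk13 (99.2 normalized counts), Kcne1l (148) and Kcne4 (26.1) and a low value of Kcnf1 (1728). PFC16, a male SAL library, accounted for 4, all high: Kcna1 (3232), Kcnj6 (433), Kcnk13 (61.2) and Kcnq3 (465). The remaining ones were a high Kcne4 in male SAL PFC12 (18.7), a low Kcnk1 in male MO PFC11 (1620), and, in female SAL, a high Kcnab2 (6923) and a low Kcng3 (3.1) in PFC2 and a low Kcnn2 in PFC24 (472). In PFC1 the mean log2 deviation was 1.84 for oligodendrocyte, 1.65 for blood and 1.53 for striatal projection neuron markers. In PFC16 it was 1.23 for striatal projection neuron and -1.21 for blood markers. The part of these markers in the flagged values was not tested.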

How the results depend on the processing

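No potassium channel gene passed an adjusted p of 0.05 in limma under any alternative run, in either sex. Of 1499 values of single named genes under alternatives, 1460 kept their side of an unadjusted p of 0.05, 14 lost it, 25 gained it and 0 reversed. Among values not past that p, 118 changed sign. Genes lower in male MO at that p numbered 2 with a term for combined libraries (1.62% of all genes), 10 within male libraries without the suffix (4.38%), and 0 to 3 with 1 library left out, against 1.21% to 2.24% of all genes (0 without PFC15, PFC19 or PFC12, 2 without PFC11, 3 without PFC18). Genes higher in male MO numbered 0 to 1 (1 without PFC13, PFC15 or PFC12), against 1.08% to 1.89% of all genes, and genes with separate groups 0 to 1 (1 without PFC11), against 0.121% to 0.277%. In females, lower genes numbered 0 with scaling to Gapdh and Ppia (0.281% of all genes), 2 with the combined term (1.39%), 11 within libraries without the suffix (5.18%, with 1 higher, against 5.31%), and 0 to 2 with 1 library left out, against 0.818% to 2.16% of all genes (0 without PFC1, PFC3, PFC23, PFC4, PFC22 or PFC24). For the difference between the sexes the count was 0 to 2 with 1 library left out, against 1.79% to 3.85% of all genes. Kcnv1 in females was at -0.10 with scaling to Gapdh and Ppia, with an unadjusted p above 0.05. Kcnj5, at few counts, was at -1.27 in males without PFC15, with an unadjusted p under 0.05. The comparison of 2 MO with 1 SAL male libraries carrying the suffix was not run as a test. No paired analysis was possible because the labels name no litters. The causes of these changes were not tested.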
